A study of Mus musculus with 4 samples.

Results

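Intermediate neutrophils were taken here as bone marrow cells that carried RNA of the secondary granules together with RNA of Retnlg, a secreted resistin-like protein that rises late in neutrophil maturation. A cell was a member if S100a8 and S100a9 together made up at least 2% of its unique molecular identifiers (UMIs, the captured RNA molecules), Camp and Ngp together at least 1%, Retnlg had at least 1 UMI and Csf1r, the receptor of the monocyte growth factor, had 0. Of the 39167 cells that passed the filters, 2689 met this rule, which is 6.87% of all cells and 39.1% of the 6876 cells that had the S100a8 and S100a9 share of neutrophils and no Csf1r. The members were thus chosen by measured values, and the levels of S100a8, S100a9, Camp, Ngp, Retnlg and Csf1r in these cells describe the choice and are no result.

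The cells came from the marrow of 2 TLR9-/- mice, which carry a disrupted Tlr9 allele throughout the body, and 2 wild-type (WT) mice, all of strain C57BL/6, with 1 library per mouse. The 2 genotypes were bred in separate cages and received normal chow, and the ages of the mice are not given in the sources used here. Femoral and tibial marrow was separated on Ficoll and the interface, which leaves out dense granulocytes, was profiled by 5′ single-cell RNA sequencing. A TLR9-/- and a WT mouse were processed in each of 2 experiments, and whether the numbers 1 and 2 mark these experiments is not given in the labels. TLR9-/- libraries 1 and 2 held 536 and 995 intermediate neutrophils with 2620200 and 5743664 UMIs, and WT libraries 1 and 2 held 454 and 704 cells with 1573014 and 4326371 UMIs. The median cell had 3302.5, 3700, 2178 and 3671.5 UMIs in the same order, which made WT library 1 the shallowest.

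Neutrophils fill their granules in a fixed order while they mature in the marrow. Promyelocytes make the primary granule enzymes (elastase, myeloperoxidase, proteinase 3), myelocytes and metamyelocytes the secondary granule proteins (lactoferrin, cathelicidin, lipocalin 2), and band cells the tertiary granule proteases, after which receptors for chemokines and for the growth factor G-CSF appear and division has stopped. TLR9 is an endosomal receptor for unmethylated CpG DNA. The study examined what TLR9 does in osteoclast formation and bone, and profiled marrow cells to see its effect on cell lineages.

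Tlr9 itself (ENSMUSG00000045322, chromosome 9 of GRCm38 from 106222598 to 106226883) was hardly captured in these cells. TLR9-/- libraries 1 and 2 had 1 and 2 Tlr9 UMIs in intermediate neutrophils, and WT libraries 1 and 2 had 1 each. In all other cells of the same libraries Tlr9 had 40 and 46 UMIs in the TLR9-/- mice and 119 and 96 in the WT mice, which gave 0.841, 0.790, 4.02 and 2.59 unscaled CPM (counts per mega-count, here a gene's UMIs over all UMIs of the cells). The labels could therefore be checked against Tlr9 in the other cells, where both TLR9-/- libraries lay below both WT libraries, and not in the intermediate neutrophils. A 5′ tag upstream of the disruption would still be counted.

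Of the markers chosen for this cell type, Ltf and Lcn2 were detected in most members. The rule already required secondary granule RNA through Camp and Ngp, so this is no separate check of the name. With each cell thinned to 1000 UMIs, Ltf (lactoferrin) was detected in 83.1% and 89.9% of the TLR9-/- cells and in 90.4% and 90.2% of the WT cells, and Lcn2 (lipocalin 2, an iron-siderophore trap) in 96.5%, 99.2%, 98.3% and 99.1%. Most neutrophils that met the same limits with Retnlg at 0 also held both markers. There Ltf was detected in 84.2%, 85.8%, 84.1% and 80.9% and Lcn2 in 92.3%, 93.8%, 96.2% and 92.2%. Mmp8 (neutrophil collagenase) was detected in 35.0% and 62.3% of the TLR9-/- cells and in 49.4% and 45.3% of the WT cells. Ly6g, the neutrophil surface marker, was detected in 43.1% and 53.2% against 56.3% and 40.9%. Mmp8 and Ly6g were therefore missing at this depth from many cells of every library, with the lowest Mmp8 share in TLR9-/- library 1. As a measure of free RNA, in B lineage cells with at least 3 UMIs of Cd79a and Cd79b, Ltf was detected in 0.2%, 0.6%, 0.2% and 1.5% of the thinned cells and Lcn2 in 1.60%, 1.48%, 0.984% and 6.20%. Retnlg was detected in 0.7%, 0.8%, 0.7% and 3.4% of those B lineage cells. Without thinning, as in the rule, it was detected in 1.38%, 1.60%, 1.39% and 5.88%, at 18.3, 17.3, 7.17 and 35.8 unscaled CPM. The B lineage cells had medians of 1373, 1823, 1278 and 1601 UMIs, against 4267, 6806, 3330 and 7459.5 in members with exactly 1 Retnlg UMI. Being deeper, those members could hold a free Retnlg UMI more often than these shares, most so in WT library 2. How many did was not tested.

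Many members stood at the Retnlg limit. Cells with exactly 1 Retnlg UMI made up 34.5% and 20.8% of the TLR9-/- members and 27.3% and 25.9% of the WT members. Just inside that limit, cells with 1 Retnlg UMI had 4418, 5220, 3974 and 3818 unscaled CPM of Ltf in TLR9-/- libraries 1 and 2 and WT libraries 1 and 2, and just outside, cells with 0 had 3982, 4241, 3393 and 3172. Mmp8 was at 107, 126, 110 and 34.4 unscaled CPM inside and at 71.3, 117, 22.6 and 12.7 outside. At the Camp and Ngp limit, cells with 1% to 1.5% of their UMIs on these genes had 561, 660, 838 and 584 unscaled CPM of Ltf, and cells with 0.5% to 1% had 453, 229, 397 and 442. Mmp8 at this limit was at 256, 1925, 961 and 1438 unscaled CPM inside and at 705, 1834, 668 and 1875 outside. It was thus higher outside in TLR9-/- library 1 and WT library 2. Cells on either side of both limits held RNA of these genes. Ltf was lower outside both limits in every library, and Mmp8 was so at the Retnlg limit alone. Few cells lay near the S100a8 and S100a9 limit, with between 0 and 20 members per library under 4%.

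TLR9-/- library 1 differed from the other libraries in its mix of members. Cells with at least 1% of their UMIs on the primary granule genes Elane, Mpo, Prtn3, Ctsg and Ms4a3 made up 22.6% of its members, against 3.12% in TLR9-/- library 2 and 4.85% and 4.69% in WT libraries 1 and 2. Its median Retnlg count was 2 UMIs, against 9 in TLR9-/- library 2 and 4 in both WT libraries. Members with at least 3 UMIs on a list of B lineage, of T and NK or of erythroid genes made up 34.7%, 15.4%, 33.7% and 29.3%, and they were kept, and how many of them were doublets was not tested. Barcodes shared between libraries numbered at most 1 per pair of libraries among the members.

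Within each library the intermediate neutrophils were set beside the immature neutrophils that met the same limits with Retnlg at 0 (1952 cells) and the mature neutrophils with Camp and Ngp under 1%, Retnlg and Csf3r present (1399 cells, of which WT library 1 gave 77). Levels across these classes are CPM after TMM scaling of the library sizes over the 12 sums of 3 classes and 4 libraries. Because the classes were drawn by the genes of these same cells, the levels are a description without a test.

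Secondary granule genes were high in the intermediate neutrophils, and their summed level was lower in the mature ones. Summed over the list they had 49008 ± 4612 CPM in the intermediate and 11061 ± 3294 CPM in the mature cells (SD, n = 4 libraries), and the single genes differed to very different degrees. Hp (haptoglobin) was higher in the intermediate than in the mature cells in 2 of 4 libraries, by a mean of 0.27 ± 0.52 on the log2(CPM + 10) scale, and had the smallest difference of the 12 genes, while Ltf had the largest. Ltf (chromosome 9, 111019271 to 111042767) was at 4604, 4201, 3555 and 3134 CPM in the immature cells, 5158, 6831, 5046 and 4645 CPM in the intermediate cells and 51.0, 57.3, 103 and 50.8 CPM in the mature cells of TLR9-/- libraries 1 and 2 and WT libraries 1 and 2. It was highest in the intermediate cells of every library, by 0.48 ± 0.23 over the immature and 6.20 ± 0.51 over the mature cells on the log2(CPM + 10) scale (SD, n = 4 libraries). Lcn2 (chromosome 2, 32384633 to 32388252) was at 15247, 11320, 12223 and 10067 CPM in the immature, 16374, 17404, 15872 and 14465 CPM in the intermediate and 1987, 3769, 1324 and 3630 CPM in the mature cells. Lcn2 differed less from the mature cells than Ltf, by 2.70 ± 0.74. Of the 12 secondary granule genes on the list, 9 were higher in the intermediate than in the immature cells in all 4 libraries and 11 were higher than in the mature cells. Over the 2297 genes with at least 50 CPM in 1 class, 32.9% and 30.6% were higher in this way than in the immature and the mature cells. The genes of the lists here and below were not held to that limit.

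Of the secondary granule genes, Fcnb alone, a ficolin of the innate immune system, was lower in the intermediate than in the immature cells in all 4 libraries (415 ± 105 against 660 ± 162 CPM) and reached 68.6 ± 26.4 CPM in the mature cells. Chil3, a chitinase-like protein, was at 4823 ± 495 CPM, against 5367 ± 751 in the immature cells, lower in 3 of the 4 libraries, and 151 ± 69.5 in the mature cells. Cebpe, the transcription factor of secondary granule genes, was at 448, 476, 351 and 393 CPM in the intermediate cells of TLR9-/- libraries 1 and 2 and WT libraries 1 and 2, close to the 551, 481, 399 and 379 CPM of the immature cells. In the mature cells Cebpe was at 34.0, 68.8, 20.5 and 53.4 CPM, below every intermediate value. Cebpb, another C/EBP factor, was at 148 ± 66.5 CPM in the intermediate and 487 ± 291 CPM in the mature cells, and Spi1, which encodes PU.1, at 396 ± 82.8 and 478 ± 147 CPM.

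Camp, Ngp and Ltf lie close together on chromosome 9. Camp, Ngp and Retnlg are genes of the rule, and Ltf, Lcn2 and Mmp8 are markers of the cell type. The 250 bases before the RefSeq starts of these 6 genes (GRCm38.p6) are shown for this reason, in the 5′ to 3′ direction of the gene. Capitals mark the letters TTGCNNAA, a core that C/EBP factors bind, and GAGGAA, a core that PU.1 binds, on either strand. Of 32851 such windows in RefSeq, 9.56% held the first and 23.3% the second.
Camp (chr9:109849457-109849706, minus strand): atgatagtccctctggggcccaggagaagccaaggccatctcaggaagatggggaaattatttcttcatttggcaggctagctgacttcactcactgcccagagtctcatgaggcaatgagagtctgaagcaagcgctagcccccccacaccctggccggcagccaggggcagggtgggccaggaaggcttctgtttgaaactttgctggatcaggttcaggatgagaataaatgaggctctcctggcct
Ngp (chr9:110419558-110419807, plus strand): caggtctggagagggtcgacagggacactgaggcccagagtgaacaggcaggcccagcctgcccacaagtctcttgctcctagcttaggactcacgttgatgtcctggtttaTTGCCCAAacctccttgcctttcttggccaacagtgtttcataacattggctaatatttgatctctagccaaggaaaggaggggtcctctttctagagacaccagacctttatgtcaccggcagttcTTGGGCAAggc
Ltf (chr9:111019042-111019291, plus strand): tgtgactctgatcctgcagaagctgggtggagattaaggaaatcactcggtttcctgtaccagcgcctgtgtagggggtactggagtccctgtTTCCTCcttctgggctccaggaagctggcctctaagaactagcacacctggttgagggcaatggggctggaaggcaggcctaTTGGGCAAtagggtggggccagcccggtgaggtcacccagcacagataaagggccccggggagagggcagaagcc
Lcn2 (chr2:32387740-32387989, minus strand): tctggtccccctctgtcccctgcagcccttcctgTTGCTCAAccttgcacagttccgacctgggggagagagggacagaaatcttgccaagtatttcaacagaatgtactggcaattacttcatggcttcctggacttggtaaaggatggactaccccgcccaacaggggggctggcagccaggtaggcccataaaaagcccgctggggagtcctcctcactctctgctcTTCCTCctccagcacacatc
Mmp8 (chr9:7558179-7558428, plus strand): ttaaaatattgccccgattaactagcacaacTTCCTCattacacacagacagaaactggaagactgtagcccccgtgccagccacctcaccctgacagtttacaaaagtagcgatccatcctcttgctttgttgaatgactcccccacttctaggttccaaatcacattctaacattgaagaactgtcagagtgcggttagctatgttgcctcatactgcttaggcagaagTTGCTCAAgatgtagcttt
Retnlg (chr16:48872358-48872607, plus strand): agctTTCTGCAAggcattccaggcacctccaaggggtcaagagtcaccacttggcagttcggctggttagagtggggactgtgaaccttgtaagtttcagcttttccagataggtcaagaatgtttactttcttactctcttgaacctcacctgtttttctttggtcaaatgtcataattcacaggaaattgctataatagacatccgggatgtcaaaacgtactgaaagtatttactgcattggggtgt
Ngp, Ltf, Lcn2, Mmp8 and Retnlg held the C/EBP letters and Camp held neither motif in this window. Ltf, Lcn2 and Mmp8 held the PU.1 letters as well. Among the secondary granule genes, 11 of the 12 had a window in the table, of which 4 held the C/EBP letters (Anxa1, Fcnb, Lcn2 and Ltf) and 6 the PU.1 letters. A match describes the letters and is not a measured binding site.

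Tertiary granule genes had risen by the intermediate stage. Mmp8 (chromosome 9, 7558456 to 7568485) was at 82.5, 116, 23.7 and 12.5 CPM in the immature cells and at 525, 1086, 777 and 517 CPM in the intermediate cells of TLR9-/- libraries 1 and 2 and WT libraries 1 and 2. The mature cells had 1166, 1263, 734 and 1225 CPM, so that Mmp8 was above the intermediate level in 3 libraries and below it in WT library 1. Mmp9 (gelatinase B) rose in the same place, from 141 ± 54.7 CPM in the immature to 816 ± 253 CPM in the intermediate cells, with 1087 ± 349 CPM in the mature cells. Of the 8 tertiary granule genes, 7 were higher in the intermediate than in the immature cells in all 4 libraries, against 32.9% of the 2297 genes, including Adam8, a membrane protease, with 43.6, 92.4, 75.8 and 77.8 CPM against 9.08, 14.3, 9.73 and 10.97 CPM. S100a6, a calcium-binding protein, climbed through all 3 classes with 513 ± 112, 2870 ± 537 and 9396 ± 3360 CPM.

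Ly6g, of the 5 markers, had its highest level in the intermediate cells of every library, as did Ltf and Lcn2. It was at 890, 869, 971 and 543 CPM in the intermediate cells, at 524, 352, 407 and 203 CPM in the immature cells and at 341, 426, 205 and 418 CPM in the mature cells. WT library 2 was the lowest of the 4 in the immature and the intermediate cells. Of the 2297 genes above, 163 (7.10%) were above both neighbours in all 4 libraries, 94 (4.09%) below both and 597 (26.0%) between them. Among these, Capg, Ifitm6 and Pabpc1l had the largest mean excess over the higher neighbour, and they were picked after their values were seen. Ifitm6, an interferon-induced transmembrane protein, had 1838, 3241, 1894 and 1810 CPM in the intermediate cells, at most 1270 CPM in the immature and at most 1187 CPM in the mature cells.

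Primary granule genes were lower in the intermediate than in the immature cells for 5 of 5 genes and in all 4 libraries, as were 31.6% of the 2297 genes. Elane (neutrophil elastase) had 2251, 2907, 1998 and 2772 CPM in the intermediate cells, against 4475, 7901, 4213 and 7099 CPM in the immature cells. The mature cells had 2403, 5846, 4588 and 3236 CPM, and there 95.7% to 98.8% of the primary granule UMIs came from 4 to 7 cells per library with at least 1% of their UMIs on these genes. Among the intermediate cells, 121, 31, 22 and 33 cells of this kind held 87.3%, 90.6%, 78.4% and 83.9% of the primary granule UMIs in TLR9-/- libraries 1 and 2 and WT libraries 1 and 2. Among the immature cells 90, 87, 57 and 93 such cells held 91.2%, 97.1%, 87.2% and 92.3%. The levels of primary granule genes thus rested on a minority of the cells in all 3 classes, which was largest among the intermediate cells in TLR9-/- library 1, with 121 of 536.

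Late neutrophil genes were still low. Of 20 such genes, 18 were higher in the intermediate than in the immature cells in all 4 libraries and 19 were lower than in the mature cells, against 32.9% and 24.1% of the 2297 genes. The 19 include Csf3r, which every mature cell had to hold by the rule of that class. Csf3r, the G-CSF receptor, was at 94.5, 133, 88.8 and 114 CPM in the intermediate cells and at 1427, 833, 677 and 1414 CPM in the mature cells, of which it was a condition. Ccl6, a chemokine, had 73.6 ± 26.8 against 2203 ± 517 CPM, Il1b (interleukin 1 beta) 6.68 ± 5.88 against 438 ± 371 CPM, and Cxcr2, the receptor that draws neutrophils into the blood, 75.9 ± 28.8 against 370 ± 170 CPM. The 8 genes with the largest deficit against the mature cells were Wfdc17, Ccl6, Ifitm1, Il1b, Gm5483, H2-Q10, Junb and Clec4d. On the other side, the 8 with the largest excess were Ltf, Chil3, Orm1, Cybb, Cebpe, AA467197, Lcn2 and Olfml2b. Cybb, the catalytic subunit of the phagocyte oxidase, was at 1080 ± 101 CPM in the intermediate and 118 ± 29.2 CPM in the mature cells.

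**Figure D1:**
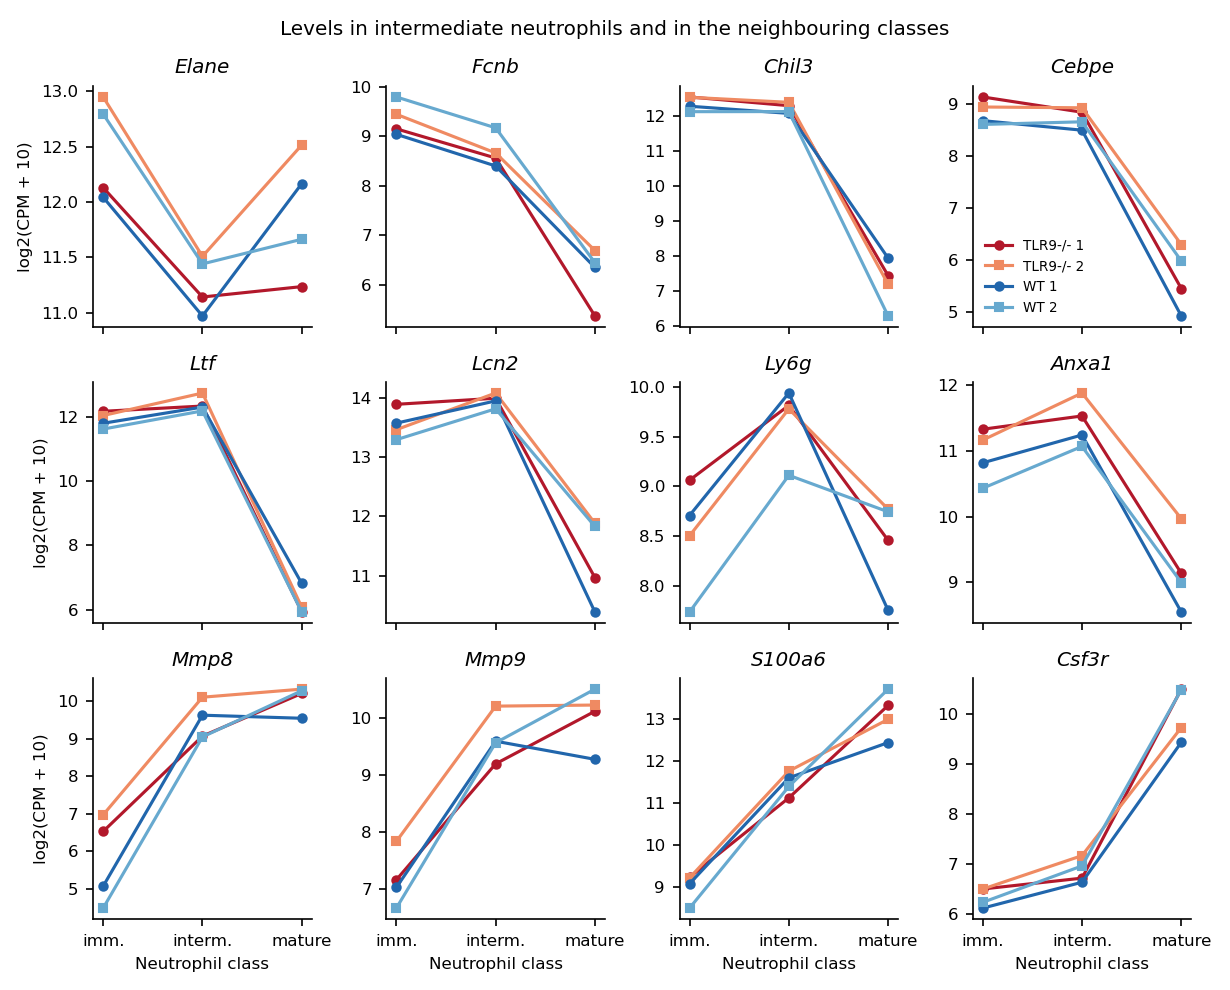
Levels of 12 genes as log2(CPM + 10) (vertical axes) in immature, intermediate and mature neutrophils (horizontal axes), with 1 line per library. Ltf, Lcn2 and Cebpe drop between the intermediate and the mature cells in every library, Mmp8 rises before that step, and Ly6g peaks in the intermediate cells.

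Receptors of the Toll-like family were sparse in these cells. Tlr13, an endosomal receptor for bacterial ribosomal RNA, had 11.2, 12.3, 11.5 and 11.2 CPM in the intermediate cells, between 1.43 ± 0.573 CPM in the immature and 56.8 ± 22.4 CPM in the mature cells. Tlr2, which binds bacterial lipoproteins, had 9.55 ± 4.88 CPM, against 2.50 ± 0.644 and 48.1 ± 16.1 CPM. Of the 13 genes of this list, 9 were higher than in the immature and 8 lower than in the mature cells in all 4 libraries, beside the same 32.9% and 24.1% over the 2297 genes. Unc93b1, the chaperone of the endosomal receptors, was at 115 ± 12.4 CPM.

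Among themselves the intermediate neutrophils formed a range along Retnlg. Members with Retnlg under 0.1% of their UMIs made up 56.9%, 36.8%, 36.6% and 45.2% of the cells of TLR9-/- libraries 1 and 2 and WT libraries 1 and 2. From this range to the cells with Retnlg at 2% or more, the median share of Camp and Ngp fell from 10.1%, 11.3%, 10.2% and 10.6% to 2.59%, 2.89%, 2.71% and 2.69%. The median UMI count fell with it, from 4835, 6537, 4033 and 7342 to 2193.5, 2778, 1562.5 and 2170.5. Every member has at least 1 Retnlg UMI, so only cells with more than 1000 UMIs can lie under 0.1%. The split itself thus sets part of this fall in UMIs. Mmp8 was at 99.9, 224, 97.8 and 50.8 unscaled CPM under 0.1% Retnlg and at 2996, 2883, 2704 and 2755 at 2% or more, where the 4 libraries lay close together. Ltf had its highest value between these ends, with 6687, 6875, 6468 and 5645 unscaled CPM in cells with 0.5% to 2% Retnlg and 2691, 3622, 4011 and 3248 at 2% or more. In TLR9-/- library 2 the value at 0.1% to 0.5%, 7360, was higher still. Elane fell from 2262, 3853, 2661 and 3223 to 32.0, 28.4, 28.4 and 137 unscaled CPM.

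TLR9-/- library 1 had the largest part of its members in that range and the smallest, 5.60%, at 2% Retnlg or more, against 16.9% in TLR9-/- library 2 and 18.1% and 15.9% in WT mice. These splits used a gene of the rule and carry no test.

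**Figure D2:**
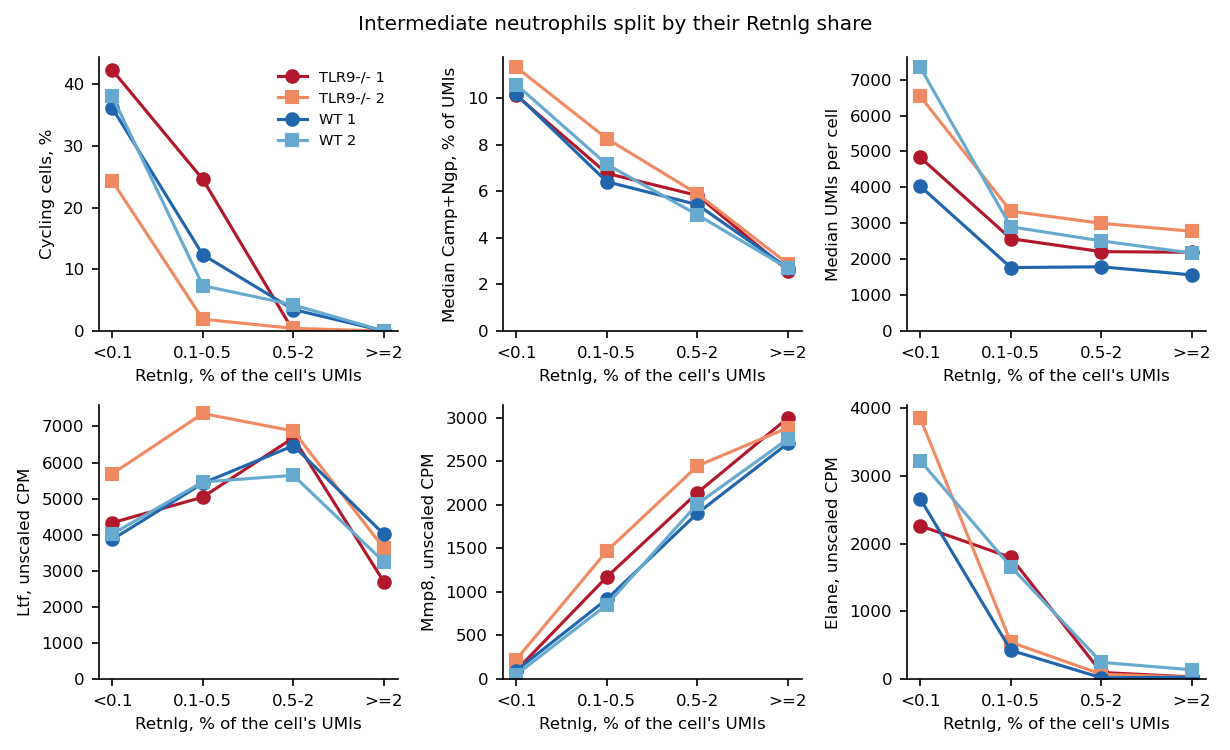
Intermediate neutrophils split by the share of Retnlg among their UMIs (horizontal axes, 4 ranges in percent), with 1 line per library. The upper row gives the percentage of cycling cells, the median percentage of Camp and Ngp and the median UMIs per cell, and the lower row Ltf, Mmp8 and Elane in unscaled CPM. Cycling cells are at most 4.24% above 0.5% Retnlg, and Mmp8 rises while Elane falls.

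Cycling cells were present among the intermediate neutrophils. A cell was called cycling if at least 3 of 1000 thinned UMIs fell on 16 G2 and mitosis genes such as Mki67, Top2a and Ube2c. In TLR9-/- libraries 1 and 2 this was so for 27.9% and 10.8% of the members, and in WT libraries 1 and 2 for 19.8% and 21.2%. The 2 TLR9-/- libraries were the highest and the lowest, so that the genotypes overlapped. The difference of the means was -1.14 percentage points (19.3% ± 12.1 in TLR9-/-, 20.5% ± 1.01 in WT, SD, n = 2 libraries each, exact two-sided permutation test, p = 1). With 2 libraries against 2, the smallest p this test can give is 0.33. The difference turned to 7.42 percentage points without TLR9-/- library 2 and was -9.69 without TLR9-/- library 1. Without WT library 1 it was -1.85, and without WT library 2 it was -0.421. Immature cells of the same libraries cycled in 40.9%, 31.0%, 35.7% and 39.8%, and mature cells in 9.52%, 2.26%, 16.7% and 6.85%. The mature shares rest on the 189 of 528, 310 of 368, 30 of 77 and 248 of 426 cells that had 1000 UMIs. Thinned to 2000 UMIs instead, which left 56, 114, 15 and 64 mature cells, the mature shares were 41.1%, 14.0%, 33.3% and 29.7%, against 42.5%, 15.9%, 30.7% and 33.9% in the members, so that the order of members and mature cells turned in WT library 1. Without thinning the mature shares were 7.58%, 5.98%, 14.3% and 7.04%, against 46.1%, 18.0%, 28.0% and 35.2% in the members. Along Retnlg the share fell from 42.3%, 24.3%, 36.1% and 38.1% under 0.1% to 0% at 2% or more in every library, where 29, 167, 64 and 103 cells could be scored. With 0 cycling cells among these, shares of up to 10.3%, 1.80%, 4.69% and 2.91% are still allowed in the same order. Free RNA of cycling cells in the droplets was not tested as a part of these shares.

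The share of intermediate neutrophils did not separate the genotypes. They made up 4.97% and 11.2% of all cells in TLR9-/- libraries 1 and 2 and 4.29% and 7.91% in WT libraries 1 and 2. The spread between TLR9-/- mice was larger than the difference of the means, 8.06% ± 4.37 against 6.10% ± 2.56 (SD, n = 2 each, exact permutation test, p = 0.667). Between libraries numbered 1 the difference was 0.678 percentage points and between those numbered 2 it was 3.24. Without TLR9-/- library 2 the mean difference turned to -1.13 percentage points. Without the other libraries it was 5.05 (TLR9-/- library 1), 0.150 (WT library 1) and 3.77 (WT library 2).

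As a share of the neutrophil-gated cells, the intermediate neutrophils were 29.1% and 46.9% in TLR9-/- mice and 41.7% and 38.6% in WT mice. TLR9-/- library 1 was the lowest and TLR9-/- library 2 the highest, outside the 95% Wilson intervals of both WT libraries (38.8% to 44.7% and 36.4% to 40.9%), which cover counting error only. The mean difference was -2.21 percentage points (SD 12.6 in TLR9-/- and 2.18 in WT, n = 2 each, exact permutation test, p = 1), and the differences within the numbers 1 and 2 were -12.6 and 8.23 percentage points. Without TLR9-/- library 1 the mean difference was 6.68 percentage points and without TLR9-/- library 2 it was -11.1.

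**Figure D3:**
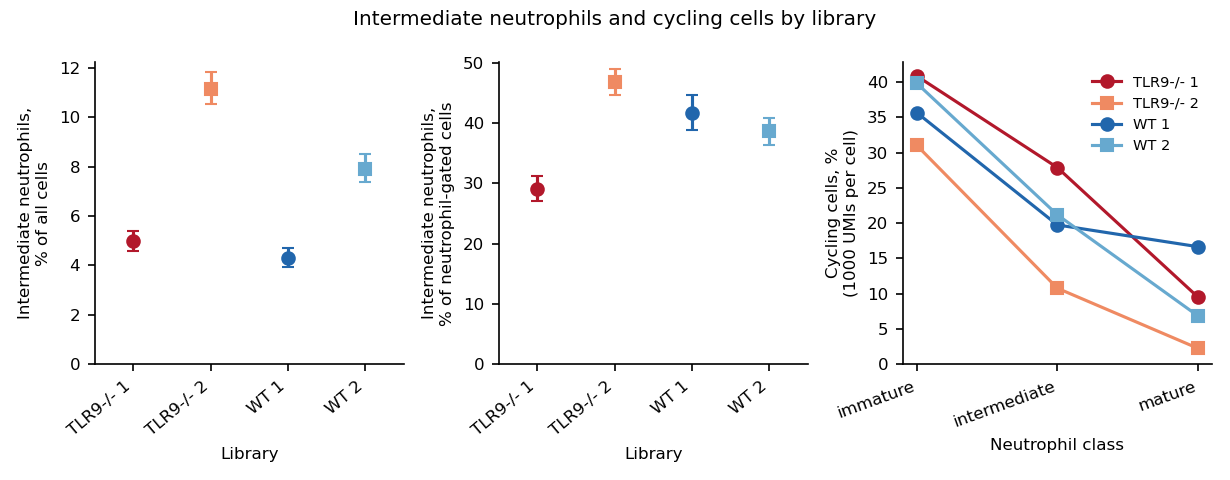
Left and middle, intermediate neutrophils as a percentage of all cells and of neutrophil-gated cells in each library, with 95% Wilson intervals. Right, percentage of cycling cells in immature, intermediate and mature neutrophils, with 1 line per library. The 2 TLR9-/- libraries lie on both sides of WT mice in the middle panel, and the cycling share falls from the immature to the intermediate cells in every library.

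The balance of late against secondary granule RNA within the cells did not separate the genotypes. The log2 ratio of the 20 late genes over the 12 secondary granule genes was -3.38 and -3.21 in TLR9-/- mice and -3.14 and -3.38 in WT mice. The values overlapped, with means of -3.30 ± 0.12 and -3.26 ± 0.17 (exact permutation test, p = 0.667). In the mature cells the same ratio was 1.29, 0.32, 0.87 and 0.82. Without 1 library at a time, the difference between the genotypes, -0.04 with all 4, lay between -0.16 (without WT library 2) and 0.08 (without WT library 1).

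Genes were then compared between the genotypes within the intermediate neutrophils. UMIs were summed per library over the members, and edgeR's quasi-likelihood test compared 2 TLR9-/- with 2 WT libraries over 8952 genes, without a term for the library number. At a Benjamini-Hochberg adjusted p under 0.05, 5 genes (0.0559%) were higher and 5 (0.0559%) lower in TLR9-/- cells, and at an unadjusted p under 0.05 there were 177 higher (1.98%) and 253 lower genes (2.83%), together 4.80%. With the library number as a block, 70 genes were higher (0.782%) and 107 lower (1.20%), together 1.98%, in the same edgeR test, which then has 1 residual degree of freedom. Gm42418, a transcript on chromosome 17, split by number in both genotypes, with 1908 and 2085 CPM in the libraries numbered 1 and 11426 and 12281 CPM in those numbered 2, on the scale of the 3 classes. Whether the numbers pair the mice is not settled, so calls are given without the block unless it is named. CPM in this comparison is scaled over the 4 sums of intermediate neutrophils alone. The mice of a genotype were separate animals, but with 2 of each the p-values rest on little replication.

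The clearest differences were transcripts present in one genotype and at 0 UMIs in the other. BC018473, an antisense transcript on chromosome 11 (116752167 to 116759373), had 263 and 293 CPM in TLR9-/- mice and 0 UMIs in both WT libraries, at least 565-fold higher against a limit of 3 UMIs over the WT group (adjusted p = 5.39e-05, edgeR). Gm6594, a processed pseudogene on chromosome 17 (82539260 to 82539545), had 149 and 169 CPM against 0 UMIs, at least 325-fold higher. In the other direction, Gm34084, a long noncoding RNA on chromosome 13 (44472426 to 44504548), had 85.8 and 82.3 CPM in WT mice and 0 UMIs in TLR9-/- mice, at least 230-fold lower in TLR9-/-. Gm16867 on chromosome 14 had 14.3 and 7.67 CPM in WT and 0 UMIs in TLR9-/-, at least 25.9-fold lower (adjusted p = 0.0393, edgeR). Gm16867 missed the threshold without TLR9-/- library 2 (adjusted p = 0.134) or WT library 1 (0.0884), and in members with Retnlg at 0.1% of UMIs or more (0.192), in edgeR's test.

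Trim12a, a TRIM family gene of the antiviral cluster on chromosome 7 (104299894 to 104315466), had 0 and 0.175 CPM in TLR9-/- and 25.4 and 28.6 CPM in WT mice. With cells thinned to 1000 UMIs Trim12a missed the threshold (adjusted p = 0.0991, edgeR). Acvrl1, a receptor of the TGF-beta superfamily on chromosome 15, had 0.387 and 0 CPM against 40.3 and 32.2 CPM. Lpl, lipoprotein lipase, had 10.1 and 8.40 CPM in TLR9-/- and 0 and 0.225 CPM in WT mice. Ocel1 on chromosome 8 (71371298 to 71379361) had 60.0 and 69.1 CPM in TLR9-/- mice and 22.8 and 16.7 CPM in WT mice. Ocel1 was the called gene with UMIs in every library that was higher in TLR9-/- cells, by 1.76 on the log2 scale (standard error 0.25, adjusted p = 0.0471, edgeR). Its call was lost in 7 of 12 alternatives, all in edgeR's test. Leaving out TLR9-/- library 2, WT library 1 or WT library 2 each lost it. So did keeping members with at least 2 Retnlg UMIs (adjusted p = 0.0684) or with Retnlg at 0.1% of UMIs or more (0.211). With the cells thinned to 1000 UMIs (1.39 on the log2 scale, adjusted p = 0.999975, edgeR) the call was lost as well. That of Lpl was lost without TLR9-/- library 2 (0.149) or WT library 2 (0.0982), with at least 2 Retnlg UMIs (0.0611) and in DESeq2 (0.0841).

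The same differences were looked for in the rest of the marrow. In all other cells of the same libraries, 4 of the 5 higher genes were also higher in both TLR9-/- than in both WT libraries. Of the 5 lower genes, 5 were also lower. The exception was Lpl, with 4.43 and 5.27 unscaled CPM in the other TLR9-/- cells and 4.56 and 1.94 in the other WT cells. Among the members 15.8% of all genes lay higher and 17.2% lower in this way. The shares over all genes in the other cells are not given here. Those cells came from the same mice and are no further replicates. Acvrl1 differed far less there than in the members, with 1.58 and 1.51 against 2.19 and 2.64 unscaled CPM, and in the mature neutrophils it overlapped, with 2.43 and 0 CPM in TLR9-/- and 0 and 17.4 CPM in WT mice. In the immature neutrophils Acvrl1 did not overlap, with 0 and 0.403 CPM in TLR9-/- and 6.08 and 5.92 CPM in WT mice. In the immature and mature neutrophils BC018473 had 466 and 511 CPM and 152 and 450 CPM in TLR9-/- libraries 1 and 2, and 0 in both WT libraries. None of the 10 called genes lies on chromosome 9, which holds Tlr9.

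Hba-a1, a haemoglobin chain, was the lower gene with UMIs in every library. It had 93.3 and 193 CPM in TLR9-/- and 1118 and 672 CPM in WT mice, a log2 change of -2.63 (standard error 0.37, adjusted p = 0.0471, edgeR), with -3.58 and -1.80 within the numbers 1 and 2. Without WT library 1 it missed the threshold (-2.20, adjusted p = 0.0899, edgeR). With thinned cells Hba-a1 had -2.37 (adjusted p = 0.188, edgeR). Without the members that held at least 3 UMIs of other lineages it also missed it (-1.88, adjusted p = 0.0689, edgeR), as did Ocel1 (1.68, adjusted p = 0.0689) and Lpl (4.19, adjusted p = 0.139). Neutrophils do not make haemoglobin. Of the 11 tested genes of the erythroid list, Hba-a1 alone passed the adjusted threshold without the block and 8 passed, all lower, with it, beside 1.20% of all genes called lower with the block. Of the 11, 9 had an unadjusted p under 0.05 and 11 had a negative fold change, with a median of -1.95 against -0.02 over all genes. Over all genes 2.83% were lower at an unadjusted p under 0.05. The summed erythroid level in the members was 1307, 1087, 13782 and 3016 CPM on the scale of the 3 classes, with Hbb-bs as its most abundant gene, and 0 of its genes were at 0 UMIs in the members. In the other cells Hba-a1 had 1010, 1211, 3663 and 2857 unscaled CPM. The part of erythroid RNA from other cells in this call was not tested.

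**Figure D4:**
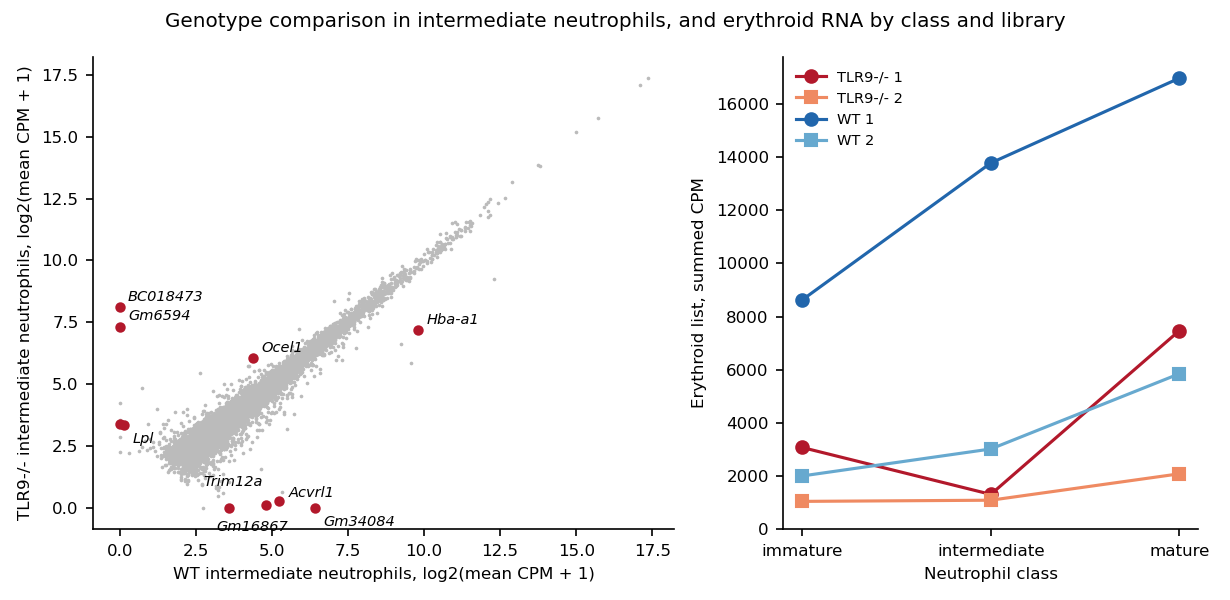
Left, mean CPM of 8952 genes in TLR9-/- (vertical) against WT (horizontal) intermediate neutrophils as log2(mean CPM + 1), with the 10 called genes in red and 9 of them named. Right, summed CPM of the erythroid list in immature, intermediate and mature neutrophils, with 1 line per library. WT library 1 lies above the other libraries in all 3 classes.

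The next genes in order of p missed the threshold with all libraries and no block, but passed in 47 of 109 refits under the alternatives. Gm35082 passed in 9 of 11, Hba-a2 and Hbb-bt each in 7 of 12, Plekhg1 in 6 of 11 and Smim5 in 5 of 12, the replicate block among them. In the higher direction these were Gm35082, Ncmap, Adat2, Hal and 1700006J14Rik, of which Adat2, a tRNA deaminase subunit, had 22.1 and 28.5 CPM against 7.15 and 7.44 CPM (adjusted p = 0.0831, edgeR). In the lower direction they were Plekhg1, Smim5, Hba-a2, Hbb-bt and Rhag, the last 3 of which belong to red cells. Smim5, a small membrane protein, had 15.1 and 12.1 CPM against 40.3 and 43.1 CPM (adjusted p = 0.0601, edgeR).

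The granule programme showed no called gene without the block. With it Mpo and Ctsg, both primary granule genes, were called higher in TLR9-/- cells in edgeR's test, 2 of 5 beside 0.782% of all genes, and 0 secondary and 0 tertiary granule genes were called. TLR9-/- library 1, with 121 of 536 members rich in primary granule RNA, enters this comparison, and its part in these calls was not tested. The block also called Ccr2 and F13a1 of the monocyte and macrophage list (2 of 10) and Pf4 of the megakaryocyte list (1 of 2) higher. Of 5 primary, 12 secondary and 7 tertiary granule genes tested, 0 passed the adjusted threshold in edgeR's test, with median log2 fold changes of 0.31, 0.16 and 0.17 against -0.02 over all genes tested. In the secondary list 11 of 12 fold changes were positive, beside 4289 of 8952 over all genes, and 1 gene, Anxa1, was higher at an unadjusted p under 0.05, beside 1.98% of all genes. Anxa1, an anti-inflammatory annexin, had 2645 and 3277 CPM in TLR9-/- and 2174 and 1939 CPM in WT mice (log2 fold change 0.53, standard error 0.22, adjusted p = 0.996, edgeR). Ltf was at 4623 and 5951 CPM against 4546 and 4213, and Lcn2 at 14676 and 15162 against 14299 and 13121. Both were a little higher in TLR9-/- mice without overlap, by 0.27 (standard error 0.22) and 0.12 (0.20), with adjusted p = 0.996 for each in edgeR's test. In this comparison 33.0% of all genes did not overlap between the genotypes. Mmp8, at 471 and 946 against 700 and 469 CPM, and Ly6g, at 798 and 757 against 875 and 492 CPM, overlapped.

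Inflammatory genes were few and low in these cells. Of 15 cytokine genes 7 could be tested, 0 passed, and 2 were higher at an unadjusted p under 0.05, as were 1.98% of all genes. With the block Tnf alone of these was called, higher, beside 0.782% of all genes. The monocyte and macrophage genes Ccr2 and F13a1, 2 of 10 tested, were called higher in the same fit. Tnf (tumour necrosis factor) had 28.2 and 24.7 CPM in TLR9-/- and 16.3 and 12.9 CPM in WT mice, a log2 change of 0.89 (standard error 0.27, adjusted p = 0.669, edgeR), and Osm (oncostatin M) had 30.6 and 22.8 against 18.2 and 13.5 CPM. Both lay higher in both TLR9-/- libraries, as did 15.8% of all genes, without passing the threshold when no block was used. Il1b had 13.5 and 2.80 against 1.95 and 5.64 CPM and overlapped. Fos, an AP-1 factor, spread more within a genotype than between them, with 135 and 18.2 CPM in TLR9-/- and 68.9 and 30.0 CPM in WT mice. Spi1 had 343 and 448 against 324 and 295 CPM (log2 fold change 0.36, standard error 0.22, adjusted p = 0.996, edgeR).

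Among 34 tested interferon-stimulated genes 0 passed and 3 had an unadjusted p under 0.05, all of them lower in TLR9-/- cells, beside 2.83% of all genes. The list had a median log2 fold change of -0.04, with 14 of 34 positive. Its summed level overlapped, at 1167 and 1546 CPM in TLR9-/- and 2073 and 1004 CPM in WT mice on the scale of the 3 classes. With the block 4 of the 34 were called lower (Cmpk2, Isg20, Oasl2 and Rsad2), beside 1.20% of all genes. Oasl2, an antiviral protein induced by interferon, had 1.16 and 1.05 CPM against 11.1 and 6.99 CPM (log2 fold change -2.94, adjusted p = 0.0964, edgeR). Ifi27l2a, the most abundant gene of the list, was at 218 and 185 against 486 and 109 CPM and overlapped. Of 7 tested Toll-like receptor genes and 17 tested genes of their signalling chain 0 passed, with medians of 0.33 and 0.11 on the log2 scale. Of the 16 G2 and mitosis genes and 16 S phase genes 0 passed, with medians of -0.10 and -0.17. Of the 29 lists, the erythroid list alone held a called gene without the block, and 12 lists held at least 1 with it. The B lineage list had a median of -0.67, with 4 of 12 genes lower at an unadjusted p under 0.05 (2.83% of all genes) and 3 called lower with the block (1.20% of all genes), and its summed level was highest in WT library 1, at 2201 CPM against 1279, 930 and 938. Markers of other cells went both ways with the block. Ccr2 and F13a1 (monocyte, 2 of 10) and Pf4 (megakaryocyte, 1 of 2) were called higher, beside 0.782% of all genes. Cd300c (dendritic, 1 of 7) and Kit and Sox4 (progenitor, 2 of 7) were called lower, beside 1.20%.

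Whether the genotype difference itself changed between the classes was tested by an interaction over the 12 sums, with the library as a block. Against the immature neutrophils 2 of 9388 genes (0.0213%) passed, both of them immunoglobulin kappa variable genes, and against the mature neutrophils 0 passed in edgeR's test. At an unadjusted p under 0.05 there were 170 (1.81%) and 364 genes (3.88%). None of the 10 genes called between the genotypes had an interaction that passed. Leaving out 1 library gave between 2 and 13 genes against the immature and between 0 and 8 against the mature cells.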

How the data were processed

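Raw UMI counts per gene and cell were used as deposited, 1 matrix per library. Per the file headers and the submitters' processing notes, the authors made these counts with Cell Ranger 3.0.1 (STAR aligner, mm10) and used Seurat 2.3.4 downstream. Cells with 200 to 10000 genes and at most 10% mitochondrial UMIs were kept (39167 of 40545 barcodes); the study prints the mitochondrial limit as 0.10%, which was read as a fraction, that is 10%. No doublets were removed. Per-library depth was 31210188 to 63958243 UMIs. UMIs were summed per library and class, and genotypes were compared by edgeR 4.0.16 (quasi-likelihood, TMM, two-sided, Benjamini-Hochberg adjustment at 0.05, R 4.3.3) with DESeq2 1.42.0 as an alternative. Single values were compared by exact two-sided permutation over libraries (scipy 1.17.1). The fits were tested on simulated data. The members and the 29 gene lists were chosen with earlier results of these data known, the motifs after values were seen. Genes named are the called ones, then the smallest unadjusted p up to 5 in each direction, the 8 largest class ratios in each direction and list members. Positions are from GENCODE M21 (GRCm38), promoters from RefSeq (GRCm38.p6). Of the 10 called genes, 1 is not reported here by name.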

Additional observations from a re-analysis of the deposited data

Results flagged for a closer look

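The genotype difference of 2 immunoglobulin kappa variable genes differed between intermediate and immature neutrophils in edgeR's interaction test. For Igkv3-7 the difference of log2 fold changes was -9.77 (adjusted p = 0.000474), with 2, 2, 109 and 34 UMIs in the intermediate and 5, 51, 2 and 0 UMIs in the immature cells of TLR9-/- libraries 1 and 2 and WT libraries 1 and 2. For Igkv3-2 it was 7.24 (adjusted p = 0.00377), with 21, 0, 23 and 0 UMIs in the intermediate and 2, 0, 400 and 0 UMIs in the immature cells. The 2 genes were not both called again when TLR9-/- library 1, TLR9-/- library 2 or WT library 1 was left out. Both fitted values depend on the prior count where a library is at 0, and neutrophils do not make immunoglobulin. The part of RNA from plasma or B cells was not tested.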

How the results depend on the processing

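The count of genes that differed between the genotypes, 10 with all libraries, was 157 with no filter on low counts, 17 with DESeq2, 4 with cells thinned to 1000 UMIs, 16 with at least 2 Retnlg UMIs and 11 to 24 without 1 library. With the replicate block it was 177 (70 higher, 107 lower). The labels do not say that a number marks an experiment. The deviations of same-numbered libraries correlated at 0.284 across genes, and with 2 pairs the crossed value is the negative of this by construction, so whether the numbers pair the mice is not settled. With Retnlg at 0.1% of UMIs or more, an alternative chosen after seeing the data, it was 14. Of 115 refits of the 10 called genes, 93 kept the call, 22 lost it and 0 turned direction, and BC018473, Gm6594, Gm34084 and Acvrl1 kept it in every setting that could be fitted. Against the immature cells the interaction gave 26 genes with no filter and 2 to 13 without 1 library, against the mature cells 22 and 0 to 8. The difference in the share of all cells ran from -1.13 to 5.05 percentage points without 1 library, in the share of gated cells from -11.1 to 6.68, in the log2 late to secondary ratio from -0.16 to 0.0816 and in the cycling share from -9.69 to 7.42. The share of gated cells turned to 0.427 without cells holding RNA of other lineages, the ratio to 0.000659 with thinned cells and the cycling share to 0.436 without thinning. The causes were not tested. With 2 mice per genotype and as few as 454 cells in a library, small differences could not be seen. In simulated data the genotype test without the block called 0 of 67 genes changed 1.5-fold. It called 19 of 67 changed 2-fold and 65 of 66 changed 4-fold, and 6 of 8460 unchanged genes. The changed genes were drawn from those above a minimum level. A list with 0 genes passing can therefore still hold 2-fold changes.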

Other observations

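Gm42418, a transcript on chromosome 17 (39846958 to 39848788), differed by library number and not by genotype. In the intermediate neutrophils it had 1908 and 11426 CPM in TLR9-/- libraries 1 and 2 and 2085 and 12281 CPM in WT libraries 1 and 2, on the scale of the 3 classes. Both libraries numbered 2 lay above both numbered 1, also in the immature and the mature cells.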
